A study of Homo sapiens with 9 samples.

Results

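The D-type cyclins, their partner kinases and the RB family were followed through 7 genes: CCND1, CCND2 and CCND3 (cyclins D1, D2 and D3), CDK4 and CDK6 (the kinases these cyclins activate), and RB1 and RBL1 (the pocket proteins RB and p107). Members were chosen by name, as all probe sets annotated to these genes. They make up 7 of 18132 genes and 23 of 49293 probe sets on the array. The probe set that was brightest on average stood for each gene, and the others are shown beside it.

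RNA came from MDA-MB231, a line of human breast cancer cells, and was hybridised to 9 Affymetrix PrimeView arrays. Cultures were lysed after 24 h in fresh serum-containing medium with 0.1% DMSO vehicle (control, n = 4), 10 µM BB94 (n = 2) or 3 µM PD325901 (n = 3). BB94 is batimastat, a broad metalloproteinase inhibitor, and PD325901 inhibits MEK, the kinase that activates ERK. All groups are 1 cell line grown in the same medium, and the samples are labelled as biological replicates. The series deals with receptor shedding and resistance to kinase inhibitors, and the comparisons ask how transcript levels differed under each inhibitor.

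In a cell leaving G1, mitogen signalling raises the D cyclins, which bind CDK4 or CDK6 and phosphorylate RB and its relatives. Unphosphorylated pocket proteins hold E2F transcription factors in check, and their phosphorylation releases the E2F programme that includes cyclin E and the DNA replication genes. Cyclin D1 is a classical readout of the RAS to ERK cascade in breast cancer cells, while CDK4 and CDK6 are the targets of drugs used in that disease. RBL1 is itself an E2F target gene, unlike its relative RBL2, which is typical of resting cells.

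Values are log2 probe set summaries, and 1 unit is a doubling. Across arrays the medians over probe sets ran from 6.05 to 6.34 and the highest of 23 background probe sets lay between 6.02 and 6.50. That highest probe set was taken as each array's background level, a strict one, so a gene below it need not be absent. The vimentin gene VIM, CD44, AXL, CAV1 and MSN, markers of mesenchymal basal lines, lay above background on all 9 arrays. Their summed level was 15.66 to 15.73 in control, 15.73 to 15.77 under BB94 and 15.60 to 15.66 under PD325901. Of the luminal markers, ESR1, PGR and CDH1 lay below background on all arrays, while GATA3, FOXA1, KRT18 and EPCAM lay above it. All 4 endothelial markers, the leukocyte genes PTPRC, CD3E and ITGAM and the fibroblast genes COL1A2, DCN and LUM lay below background throughout. CD68 and COL1A1, of the leukocyte and fibroblast lists, lay above it on all 9 arrays, and PDGFRB on 1. Under PD325901 GATA3 rose 1.86-fold (adjusted p = 5.6e-05), KRT18 fell 2.21-fold (adjusted p = 0.00158) and MSN fell 1.24-fold (adjusted p = 0.0081). ITGAM, CDH1 and LUM were called higher while below background in both groups. The part of these markers in the results was not tested, and 0 of them were called under BB94. In the comparison of PD325901 with control, limma called 35.1% of all genes, 22.8% higher and 12.3% lower. In BB94 against control it called 1.58%. Calls depended on scaling in their direction: 65.1% of PD325901 calls were higher on the deposited values, 31.7% with arrays centred on their median over genes and 52.6% with the median over probe sets. For BB94 these shares were 31.1%, 45.3% and 59.3%, and 45.9% after cyclic loess, and for PD325901 against BB94 they were 67.3%, 28.4% and 41.2%. The median change of all genes under PD325901 was 0.08 and moved to -0.17 with the first centring.

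PD325901 lowered 4 of the 7 genes, CCND1, CCND3, CDK6 and RBL1, and raised 0. The other 3, CCND2, CDK4 and RB1, were not called. The share called, 4 of 7, stands beside 35.1% over all genes in either direction and 12.3% for lower calls. All 3 treated arrays lay below all 4 control arrays for the 4 genes that fell, and above them for CCND2, so that 5 of 7 genes did not overlap, against 40.4% of all genes. The median change of the 7 genes was -0.46 on the log2 scale, against 0.08 over all genes. BB94 left 0 of 7 called by limma, near the 1.58% called among all genes, and 0 at an unadjusted p under 0.05. It left 0 clear of the controls on both arrays, where 17.3% of all genes were clear. Directly against BB94, PD325901 again had the same 4 genes lower, in a comparison with 31.2% of all genes called and 10.2% lower.

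**Figure D1:**
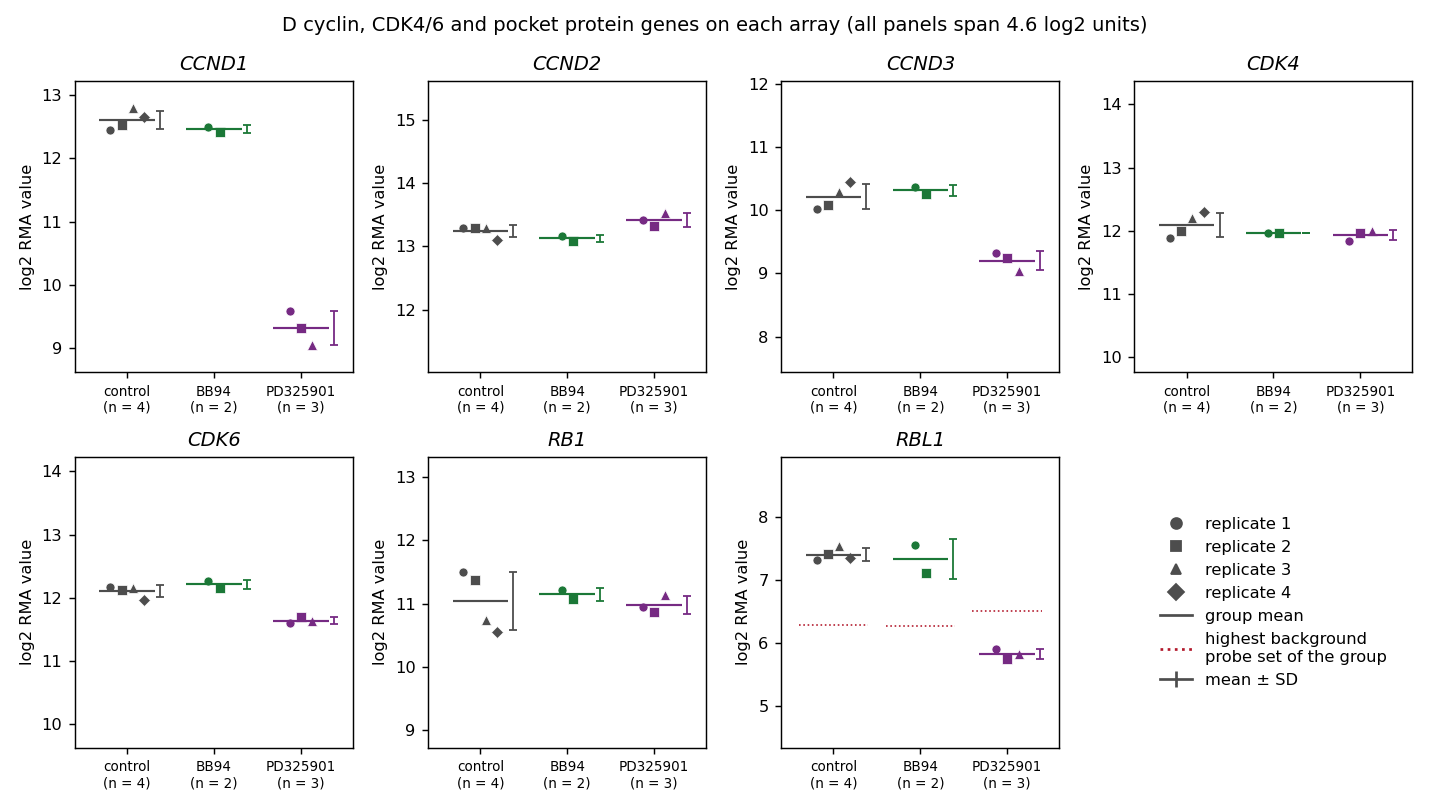
Log2 RMA value of each of the 7 genes (1 panel each, every panel spanning 4.6 log2 units) on the 9 arrays, by group, with replicate number as symbol, the group mean as a line, the SD as a bar and the highest background probe set of the group as a dotted line where it falls in range. CCND1, CCND3, CDK6 and RBL1 lie lower on all 3 PD325901 arrays than on any control array, RBL1 dropping below background, and the RB1 control arrays split into 2 pairs.

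Among the cyclins, CCND1 fell most. It stood at 12.45, 12.53, 12.79 and 12.65 in control replicates 1 to 4, at 12.50 and 12.42 under BB94 and at 9.58, 9.31 and 9.05 under PD325901. The MEK inhibitor arrays were therefore far below the other 6, which overlapped among themselves. The means were 12.61 ± 0.15 (SD, n = 4) in control and 9.32 ± 0.27 (SD, n = 3) under PD325901, and the log2 change was -3.29 (SE 0.13, 95% interval -3.57 to -3.01, adjusted p = 3.6e-08), a 9.78-fold fall. Each value averages over a culture, so a lower level in every cell and fewer cells with the transcript cannot be told apart. Under BB94 the change was -0.15 (95% interval -0.47 to 0.18, adjusted p = 0.845). PD325901 lay 8.84-fold below BB94 in the direct comparison (log2 -3.14, SE 0.15, adjusted p = 2.5e-07).

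All 4 probe sets of CCND1 fell under PD325901, by different amounts. Fitted over all probe sets, of which 29.4% were called in this comparison and 12.1% lower, their changes were -3.29 for the probe set used (11721255_at), -4.11 for 11721257_at, -2.64 for 11751330_a_at and -1.76 for 11721256_a_at. The last 3 ended below background on all 3 treated arrays, where a fitted change is not a measured size. Under BB94 only 11721257_at was called. It stood at 8.51, 8.59, 8.62 and 9.06 in control, at 7.80 and 7.60 under BB94 and at 4.69, 4.78 and 4.30 under PD325901. Both BB94 arrays lay below every control array for it, a log2 change of -0.996 (SE 0.17, adjusted p = 0.0183 over all probe sets). In 11721256_a_at the BB94 arrays, at 6.96 and 6.88, also lay below every control array, the lowest at 7.09, with a change of -0.49 (95% interval -0.85 to -0.13) that was not called. The other 2 probe sets overlapped with control and had changes of -0.15 and -0.23.

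CCND3, which encodes the D cyclin prominent in blood cells, fell less than CCND1. Control replicates read 10.02, 10.08, 10.29 and 10.45, BB94 replicates 10.37 and 10.25, and PD325901 replicates 9.32, 9.24 and 9.03. Treated and control arrays did not overlap, and the BB94 arrays lay among the controls. The fall was 2.02-fold (log2 -1.01, SE 0.12, 95% interval -1.28 to -0.75, adjusted p = 6.5e-05). Its other probe set, 11762304_a_at, lay below background on all arrays, and averaging it in reduced the change to -0.40. The BB94 change was 0.10 (95% interval -0.20 to 0.40, adjusted p = 0.904).

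CCND2, the third D cyclin gene, did not follow the others. It stood at 13.29, 13.29, 13.29 and 13.11 in control, at 13.17 and 13.09 under BB94 and at 13.41, 13.32 and 13.53 under PD325901. The 3 treated arrays were the highest of the 9, by a small margin. The change of 0.18 (SE 0.09, 95% interval -0.01 to 0.37, adjusted p = 0.145) was not called, and it was -0.075 with arrays centred on their median over genes. Trend and robust settings (adjusted p = 0.0475) and cyclic loess (adjusted p = 0.0458) called it, within a range of 0.0458 to 0.593 over 21 alternatives. Against BB94 the difference was 0.29 (SE 0.10, adjusted p = 0.0535), which was called in 8 of 19 alternatives (range 0.0104 to 0.823) and was -0.034 with arrays centred over genes. The probe set used, 11719198_s_at, averaged 13.28 over the 9 arrays, far above 11719197_at at 6.80, so the level of CCND2 depends on the probe set. The cause of this gap was not tested. 11719197_at had changes of 0.22 under PD325901 and -0.20 under BB94, neither called, and 11719199_a_at lay below background throughout. The 3 D cyclin genes thus moved as a large fall, a smaller fall and a rise that did not pass the test, and the differences between the genes were not tested.

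The kinase gene CDK4 showed no change that passed the test. Its values were 11.88, 11.99, 12.20 and 12.29 in control, 11.97 and 11.97 under BB94 and 11.84, 11.97 and 12.00 under PD325901, and the groups overlapped. The change under PD325901 was -0.16 (SE 0.11, 95% interval -0.39 to 0.08, adjusted p = 0.310) and that under BB94 -0.12 (95% interval -0.39 to 0.15, adjusted p = 0.845). All 4 of its probe sets lay above background on every array, and none was called, with PD325901 changes between -0.20 and -0.09. CDK4 was called lower under PD325901 with arrays centred on their median over genes (-0.41, adjusted p = 0.0162) and against controls 3 and 4 only (-0.31, adjusted p = 0.0146), within a range of 0.0146 to 0.987 over 21 alternatives.

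CDK6, the other D cyclin kinase gene, fell modestly under PD325901. It stood at 12.17, 12.12, 12.16 and 11.96 in control, at 12.27 and 12.16 under BB94 and at 11.59, 11.69 and 11.64 under PD325901. Every treated array lay below every control and BB94 array. The fall was 1.38-fold (log2 -0.46, SE 0.08, 95% interval -0.64 to -0.28, adjusted p = 0.00115), and 1.49-fold against BB94 (adjusted p = 0.00109). BB94 gave a change of 0.11 (95% interval -0.10 to 0.32, adjusted p = 0.79).

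The 4 CDK6 probe sets fell together under PD325901, yet they did not give the same picture of BB94. Their PD325901 changes were -0.46 for 11723243_at, -1.03 for 11723241_at, -0.63 for 11723244_at and -0.92 for 11723242_at, all called. The last lay below background on all 3 treated arrays, so its change is not a measured size. The probe set 11723241_at stood at 11.45, 11.49, 11.52 and 11.54 in control, at 10.25 and 10.20 under BB94 and at 9.89, 10.82 and 10.69 under PD325901. Its control arrays lay close together, and both inhibitor groups lay well below it. The BB94 change was -1.27 (SE 0.21, adjusted p = 0.0131), and PD325901 differed from BB94 by 0.24 (adjusted p = 0.495). The probe set with the lowest level, 11723242_at, read 6.33 to 6.64 in control, above background on all 4 arrays, and 5.85 and 6.02 under BB94, below it (-0.56, adjusted p = 0.149). 11723243_at and 11723244_at had BB94 changes of 0.11 and -0.02. Over all 23 probe sets, 12 were called in PD325901, all lower, and 2 in BB94, both lower, against 1.5% of all probe sets in that comparison and 1.13% lower. Both BB94 calls were lost with either BB94 array left out, when the remaining array is assumed to vary like the other groups (adjusted p = 0.099 and 0.297 for 11721257_at, 0.112 and 0.203 for 11723241_at), and 11723241_at also with control replicates 1 and 2 alone (adjusted p = 0.0614). Their ranges over 19 alternatives were 0.0107 to 0.297 and 3.6e-04 to 0.203. Which transcripts each of these probe sets reads was not analysed here.

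**Figure D2:**
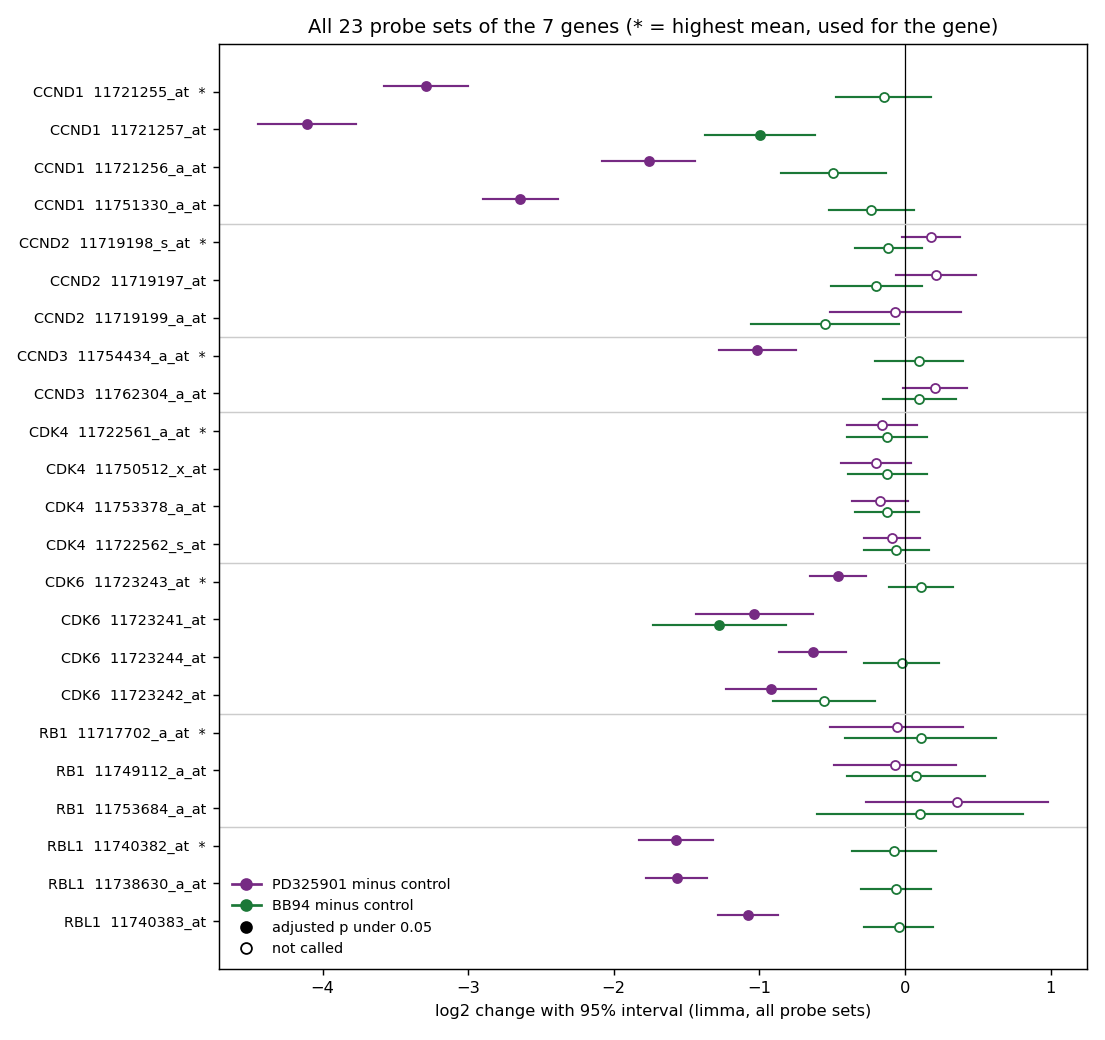
Log2 change from control with its 95% interval (limma over all probe sets) for the 23 probe sets of the 7 genes, PD325901 in purple and BB94 in green, filled where the adjusted p was under 0.05. The 4 CCND1, 4 CDK6 and 3 RBL1 probe sets and 1 of 2 for CCND3 fall under PD325901, and the only filled BB94 points are 11721257_at of CCND1 and 11723241_at of CDK6.

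**Figure D3:**
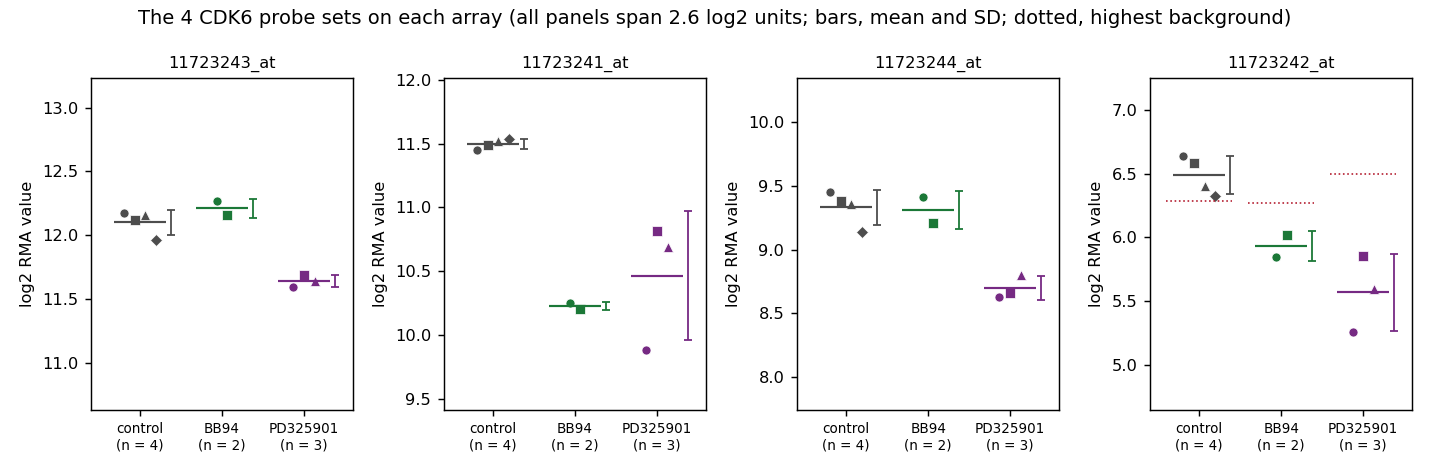
Log2 RMA value of each CDK6 probe set on the 9 arrays (every panel spanning 2.6 log2 units), with group means, SDs and, where in range, the highest background probe set of the group. In 11723241_at the BB94 arrays, at 10.25 and 10.20, lie below all controls, while in 11723243_at, at 12.27 and 12.16, they lie with them.

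RBL1, which encodes p107, fell below the strict background level under PD325901. The gene stood at 7.31, 7.40, 7.53 and 7.35 in control, at 7.55 and 7.10 under BB94 and at 5.91, 5.75 and 5.83 under PD325901. It was above background on all 6 control and BB94 arrays and below it on all 3 PD325901 arrays. The fall was therefore at least 1.97-fold, with a fitted log2 change of -1.57 (SE 0.11, adjusted p = 2.0e-06). Control averaged 7.40 ± 0.10 (SD, n = 4) and PD325901 5.83 ± 0.08 (SD, n = 3). For this bound each treated array entered at its background level. All 3 of its probe sets fell, with fitted changes of -1.57, -1.57 and -1.08. The BB94 change was -0.08 (95% interval -0.36 to 0.20, adjusted p = 0.93), and PD325901 lay at least 1.87-fold below BB94 (adjusted p = 1.4e-05).

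RB1, the retinoblastoma gene and founding pocket protein, was not called in any comparison, and its control arrays disagreed. It stood at 11.50, 11.37, 10.74 and 10.55 in control, at 11.22 and 11.07 under BB94 and at 10.95, 10.86 and 11.14 under PD325901. Control replicates 1 and 2 were the highest of the 9 arrays and replicates 3 and 4 the lowest, a gap of 0.79 between the pairs' means. The change under PD325901 was -0.06 (SE 0.21, 95% interval -0.52 to 0.41, adjusted p = 0.881) and under BB94 0.11 (95% interval -0.42 to 0.64, adjusted p = 0.953). Against controls 1 and 2 only the PD325901 change was -0.45 (adjusted p = 0.0112), and against controls 3 and 4 only it was 0.34 (adjusted p = 0.0347), within a range of 0.0112 to 0.991 over 21 alternatives. The 3' to 5' difference of the ACTB control probe sets, a sign of RNA integrity, was 3.89 and 3.75 in control replicates 1 and 2 and 3.46 and 2.96 in replicates 3 and 4, and its part in the result was not tested. It was 3.91 to 4.22 under BB94 and 3.50 to 4.15 under PD325901. The same pairs of controls differed by -0.32 in CCND3, -0.31 in CDK4 and -0.23 in CCND1. The split was not limited to these genes. Over all probe sets controls 1 and 2 correlated at 0.998 and controls 3 and 4 at 0.997, against 0.994 to 0.996 across the pairs. Both other RB1 probe sets lay below background on every array.

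Promoter windows from RefSeq (GRCh38.p14, 250 bases before to 50 after a start) matched 5 of the 7 genes, with 8 windows in all. Windows of CCND1 and CCND2 were not analysed here. RB1 was covered only by chr13:48476200-48476499 on the plus strand. Starts of these genes outside the 8 windows were not searched, so a motif missing here may lie at another start. The windows of RBL1, which fell, and CDK4, which was not called, are shown because they hold the most E2F motifs and the most E-boxes of the 8. In the RBL1 window, chr20:37095948-37096247 on the minus strand, capitals mark E2F motifs (TTTCCCGC, TTTCGCGC, TTTGCCGC or TTTGGCGC, on either strand). In the CDK4 window, chr12:57752261-57752560 on the minus strand, capitals mark the E-box CACGTG, which MYC and related factors bind.
RBL1: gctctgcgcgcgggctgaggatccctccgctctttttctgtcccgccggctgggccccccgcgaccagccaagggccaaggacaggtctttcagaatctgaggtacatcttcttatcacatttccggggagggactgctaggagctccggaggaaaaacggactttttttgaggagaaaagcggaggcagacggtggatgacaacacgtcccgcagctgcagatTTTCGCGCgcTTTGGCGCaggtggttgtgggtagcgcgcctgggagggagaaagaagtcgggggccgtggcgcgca
CDK4: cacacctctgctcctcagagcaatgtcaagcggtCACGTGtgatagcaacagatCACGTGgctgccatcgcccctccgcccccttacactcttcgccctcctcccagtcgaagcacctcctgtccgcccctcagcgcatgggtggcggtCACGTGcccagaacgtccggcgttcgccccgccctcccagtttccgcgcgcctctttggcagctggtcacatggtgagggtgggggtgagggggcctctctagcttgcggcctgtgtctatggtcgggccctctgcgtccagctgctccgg
RBL1 held 2 E2F motifs, TTTCGCGC starting at base -26 and TTTGGCGC at -16 from the start site, and was the only window of the 8 with any, against 3.31% of 35116 windows of the same length. CDK4 held 3 E-boxes, at -216, -196 and -101. CDK6 held 1 at base 31 in 1 of its 2 windows, against 7.26% of all windows with at least 1. The AP-1 motif TGAGTCA and the CRE TGACGTCA were in 0 of the 8 windows (4.95% and 1.85% of all), the ETS motif CCGGAAG in 1, of CCND3 (10.3%), and the SP1 motif GGGCGG in 4 (45%). Motifs were sought on both strands, no motif contains another, and a match describes these letters only.

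The other genes of the RB pathway were read from 8 lists holding 76 distinct genes, 73 of them measured. Under PD325901 37 fell, 8 rose and 28 were not called, 61.6% called against 35.1% of all genes. Under BB94 limma called 0 of the 73, near the 1.58% called among all genes. Another 3 had an unadjusted p under 0.05, a level for which no share over all genes was taken.

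Genes of cyclins, a kinase and a phosphatase that act after cyclin D fell without exception among the 5 measured, beside 12.3% of all genes called lower. Their median log2 change was -0.997. CCNE2 and CCNE1, the E cyclin genes, fell 4.01-fold (adjusted p = 1.3e-04) and 1.55-fold (adjusted p = 7.2e-05). The CCNE2 controls split as those of RB1 did, at 10.86 and 10.43 in replicates 1 and 2 and 9.72 and 9.61 in replicates 3 and 4, and its log2 change ran from -2.49 to -1.52 over 21 alternatives. Their partner kinase gene CDK2 fell by 0.997 on the log2 scale, with means of 9.02 ± 0.31 (SD, n = 4) in control and 8.02 ± 0.14 (SD, n = 3) under PD325901. CDK2 controls 1 and 2, at 9.29 and 9.27, also stood above controls 3 and 4, at 8.84 and 8.68. The log2 change of CDK2 ran from -1.26 to -0.74 over the same alternatives. CDC25A, the phosphatase that activates CDK2, fell 3.14-fold (adjusted p = 1.2e-06).

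The CDK inhibitors went both ways, with 2 of 6 measured genes higher, 2 lower and 2 not called. These counts stand beside 22.8% of all genes called higher and 12.3% called lower. CDKN1B, which encodes p27, rose 2.04-fold (adjusted p = 4.1e-05), its control mean being 10.69 ± 0.21 (SD, n = 4) and its treated mean 11.71 ± 0.04 (SD, n = 3), and CDKN1C, which encodes p57, rose 4.23-fold. CDKN1A, the p21 gene, fell 1.64-fold (adjusted p = 4.4e-04), and CDKN2D, a CDK4 and CDK6 inhibitor of the INK4 family, fell 1.53-fold (adjusted p = 1.7e-04). CDKN2A and CDKN2B, the INK4 genes for p16 and p15, lay below background on all 9 arrays. 

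Of the 10 E2F and DP genes, 7 fell and 3 were not called, where 12.3% of all genes were called lower. The activator genes E2F1 and E2F2 fell 3.03-fold and 2.19-fold (adjusted p = 9.3e-07 and 3.6e-06), and the repressor gene E2F7 fell 2.31-fold (adjusted p = 0.00256). E2F8 was called lower but lay above background in only 2 of 4 control arrays and 0 of 3 treated ones, so no size is given. In E2F7 controls 1 and 2, at 12.38 and 12.22, stood above controls 3 and 4, at 11.57 and 11.25, and the log2 change ran from -1.65 to -0.76 over 21 alternatives. All 16 measured E2F target genes of S phase were called lower, with a median of -1.23, and 15 to 16 were called over 21 alternatives. MCM5, a helicase subunit gene, is among them with all 9 arrays below background, so its change is not a measured size. MCM2, a subunit of the replicative helicase, fell 2.63-fold and its loading factor gene CDT1 2.63-fold. CCNE1, CCNE2 and E2F1 belong to this list as well.

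Products of RBL2 and the MuvB genes form the repressor complex DREAM in resting cells. Their list, which also holds MYBL2 (lower) and DYRK1A (not called), split as 2 higher, 4 lower and 2 not called of 8. Among all genes 22.8% were called higher and 12.3% lower. RBL2, the third pocket protein gene, rose 1.34-fold (adjusted p = 0.0137), its control mean being 10.30 ± 0.19 (SD, n = 4) and its treated mean 10.72 ± 0.10 (SD, n = 3). RBL1 and RBL2 were therefore called in opposite directions. That call of RBL2 was lost with arrays centred over genes (0.17, adjusted p = 0.250), against controls 1 and 2 only (adjusted p = 0.0724) and without PD325901 replicate 1 (adjusted p = 0.0662), within a range of 0.00162 to 0.250. MYBL2, the B-MYB gene that replaces the pocket protein in dividing cells, fell 2.99-fold, LIN54 1.83-fold and LIN9 1.72-fold. In LIN9 controls 1 and 2, at 10.06 and 10.01, stood above controls 3 and 4, at 9.38 and 9.19. The log2 change of LIN9 ran from -1.16 to -0.41 over 21 alternatives, and that of LIN54 from -1.13 to -0.40. LIN52 was called with both groups below background.

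Genes for the assembly and turnover of cyclin D complexes were called at shares near the 35.1% of all genes. Of 6 genes of the CDK-activating kinase and the CDK4 chaperones, HSP90AA1 (-0.27, adjusted p = 0.00965) and MNAT1 (-0.21, adjusted p = 0.0496) fell and 4 were not called, with a list median of -0.18. The count of 2 ran from 1 to 5 over 21 alternatives, and that of the turnover genes from 2 to 7. MNAT1 lost its call in 12 of 21 alternatives, among them every single-array omission but that of control replicate 1 (range 0.00145 to 0.18). Of 10 turnover genes 2 rose and 1 fell, with a median of 0.02. The ubiquitin ligase subunit gene FBXW8 rose 1.51-fold and BTRC 1.34-fold, while SKP2, whose product marks p27 for destruction and which is an E2F target, fell 3.20-fold (adjusted p = 6.1e-07). SKP2 averaged 9.15 ± 0.11 (SD, n = 4) in control and 7.48 ± 0.17 (SD, n = 3) under PD325901. BTRC was not called with arrays centred over genes (adjusted p = 0.217) or with the mean of its probe sets (adjusted p = 0.221).

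Among 15 factors known to act on CCND1 transcription, 3 fell, 2 rose and 10 were not called, a share near the 35.1% called among all genes. ETV4, an ETS factor of the PEA3 group, fell by a factor of at least 9.53, being under background on all 3 treated arrays. FOSL1, an AP-1 subunit gene, fell 7.52-fold (log2 -2.91, SE 0.15, adjusted p = 2.4e-07) and JUN 1.69-fold (adjusted p = 3.7e-04). STAT5A rose 1.81-fold (adjusted p = 2.5e-05). The count of called factors, 5 in all, was 9 with control replicates 1 and 2 alone or with arrays centred over genes, and 10 with control replicates 3 and 4 alone.

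**Figure D4:**
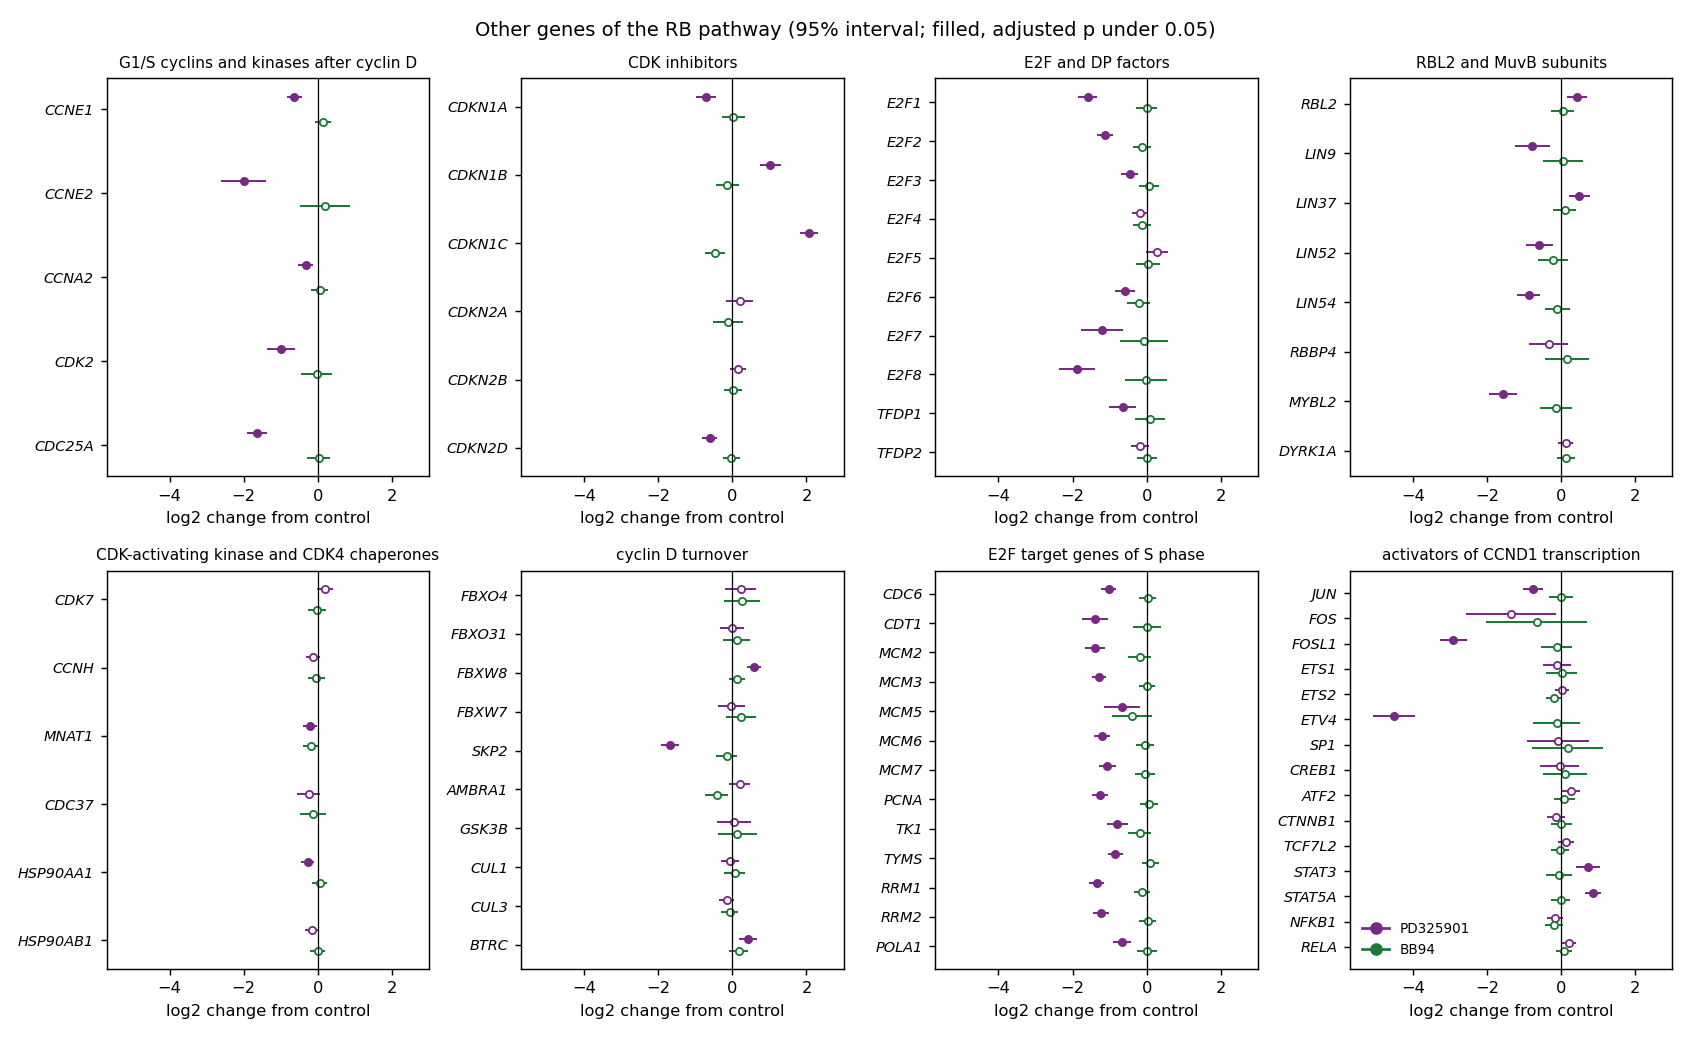
Log2 change from control with its 95% interval for the measured genes of the 8 lists (CCNE1, CCNE2 and E2F1 drawn once), PD325901 in purple and BB94 in green, filled where the adjusted p was under 0.05. Most filled points lie below 0, with CDKN1B, CDKN1C, RBL2, LIN37, FBXW8, BTRC, STAT3 and STAT5A above it, and no BB94 point is filled.

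The nearest measured gene on either side of each member in RefSeq gene order was added after the values had been seen. Of these 14 neighbours, 9 were called under PD325901, 4 lower and 5 higher, and 0 under BB94, beside 35.1%, 12.3% and 22.8% of all genes for PD325901 and 1.58% for BB94. The 5 higher include MROH8, next to RBL1, which lay below background on all control and PD325901 arrays. LTO1, next to CCND1, fell 5.98-fold (adjusted p = 3.2e-07), averaging 12.85 ± 0.20 (SD, n = 4) in control and 10.27 ± 0.28 (SD, n = 3) under PD325901. On its other side MYEOV averaged 11.91 ± 0.07 (SD, n = 4) in control and 6.76 ± 0.96 (SD, n = 3) under PD325901, where 2 of 3 arrays were above background. BYSL, a ribosome assembly gene beside CCND3, fell 1.57-fold (adjusted p = 4.0e-04), while TAF8 on the other side was not called (0.28, adjusted p = 0.169). Beside CDK4, which was not called, TSPAN31 rose 1.89-fold (adjusted p = 4.5e-05) and MARCHF9 1.47-fold (adjusted p = 0.0127). The neighbours of RB1, ITM2B and LPAR6, were not called, LPAR6 being below background.

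The genes whose log2 values followed each member most closely were sought among 10378 genes above background on all control arrays. Likeness is Pearson's r over the same 9 arrays, which share the step between treatment groups, and carries no test. For CCND1 the 5 closest were LAMB1, FOSL1, RAD18, TOX2 and ABTB3, with r between 0.998 and 0.999. LAMB1, a laminin chain gene, averaged 10.60 ± 0.13 (SD, n = 4) in control and 7.82 ± 0.22 (SD, n = 3) under PD325901. For CCND3 they were POLR1E, its neighbour BYSL and PDLIM2 (0.994 to 0.999), for CDK6 SH3RF3, TCOF1 and TENT4A (0.989 to 0.993), and for RBL1 EME1, DNMT1 and CDCA7 (0.995 to 0.996). RB1 was followed by SH3BGRL2, FBXO30 and CBL (0.988 to 0.991), whose control SDs of 0.54, 0.60 and 0.46 were as wide as the 0.46 of RB1. CDK4 was followed by FDPS, MTRF1L and COPS9 (0.967 to 0.971) and CCND2 by C1QL1, PRKACB and GRAMD4 (0.958 to 0.974).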

How the data were processed

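Per the series' design text, the authors summarised the arrays by RMA (Bioconductor's affy), and the deposited values are on the log2 scale. Version and chip definition are not given in the sources used here. RMA quantile-normalizes the arrays at the level of single probes, so a shift common to all probes is removed before deposit. Array medians over genes still differed, at 7.50 to 7.61 in control, 7.39 to 7.58 under BB94 and 7.77 to 7.86 under PD325901. The 102 control probe sets were left out. Of 49395 probe sets, 44988 carried 1 gene symbol in the platform annotation, 1832 several and 2473 none. The test was limma's (version 3.58.1, R 4.3.3), two-sided, from lmFit and eBayes on all 9 arrays with a coefficient per group. Adjustment was by Benjamini-Hochberg over 18132 genes, or over 49293 probe sets where probe sets are named, and genes were called at an adjusted p under 0.05. The fit was tested on simulated data. Precision is limited by how few arrays each group has. The replicates are labelled biological, with no more on how cultures were separated. The members and lists were chosen with earlier results of these data known. Named were the 7 members, up to 4 called genes per list by size of change under PD325901 and up to 2 under BB94, and CCNE1, CCNE2, CDK2, CDKN1A, CDKN1B, CDKN2A, CDKN2B, CDKN2C (not measured under 1 symbol), CDKN2D, E2F1 and RBL2, with the 5 genes most alike to CCND1 and 3 for each other member. Alternatives varied the probe set rule, filter, moderation, array weights, scaling, background level, replicate block, groups fitted, controls used and each array left out.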

Additional observations from a re-analysis of the deposited data

Results flagged for a closer look

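In the control group, 37 named genes were checked for an array far from the other 3 (Dixon's test at the 95% level), and 3 were marked; chance marks about 1 in 20. CCND2 stood at 13.11 in control replicate 4, with the other 3 controls at 13.29. FBXW8 stood at 11.69 in control replicate 4, against 11.81 to 11.83 in the others. CDT1 stood at 9.10 in control replicate 3, against 8.79 to 8.84 in the others.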

How the results depend on the processing

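Under PD325901, CCND1, CCND3, CDK6 and RBL1 were lower and called in all 21 alternatives, with log2 changes of -3.54 to -2.95, -1.27 to -0.40, -0.76 to -0.42 and -1.82 to -1.41. Against BB94 all 4 stayed lower, and CDK6 lost its call with the mean of probe sets (-0.33, adjusted p = 0.0625). RB1 changed sign under PD325901 with the mean of probe sets (0.079), with control replicates 3 and 4 alone (0.34) and over single-array omissions (-0.22 to 0.10). With arrays centred over genes CCND2 turned to -0.075 against control and -0.034 against BB94, CDKN2A to -0.057 and CDKN2B to -0.10. Uncalled BB94 changes that turned sign were CDK6 (-0.44, mean of probe sets), RB1 (-0.087 with array weights, -0.13 with the replicate block, -0.29 with control replicates 1 and 2 alone, -0.056 to 0.26 over single-array omissions), RBL1 (0.036 centred over probe sets, 0.0086 with cyclic loess, -0.30 to 0.15 over omissions), CDK4 (0.00437 with the replicate block, 0.032 with control replicates 1 and 2 alone) and CCND3 (-0.060, control replicates 3 and 4 alone). CDK4 in PD325901 against BB94 ran from -0.065 to 0.012 over omissions. The BB94 count over all genes, 286, was 469 with array weights, 161 with the replicate block, 140 with only those 2 groups fitted, 1633 with control replicates 3 and 4 alone and 62 to 367 over omissions, the lowest without BB94 replicate 2 and 116 without replicate 1. With control replicates 3 and 4 alone 1 member, RB1, was called under BB94. The 2 member probe sets called under BB94 became 0 with the replicate block and 0 to 2 over omissions. Deviations from the group mean correlated at -0.19 to 0.12 between same-numbered arrays and at -0.27 to 0.27 between differently numbered ones. Deviations of the 2 BB94 arrays mirror each other by construction, so these values cannot tell whether replicate numbers pair the arrays. With background at the 95th percentile of its probe sets the bound for RBL1 rose to 2.19-fold. The cause of these shifts was not tested.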
